A study of Mus musculus with 5 samples.

Results

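Integrins are surface proteins, many of which hold cells to the matrix around them, and tetraspanins are membrane proteins that gather integrins and other partners. The genes described here are those whose symbols begin with Itga, Itgb or Tspan followed by the family number or letter, together with the tetraspanins Cd9, Cd63, Cd81, Cd82 and Cd151 and the related L6 family genes Tm4sf1, Tm4sf4 and Tm4sf5. The rule gave 54 genes (26 integrin subunits, 25 tetraspanins and 3 L6 genes) of 23779 genes with a named probe, and it used no measured value. They were measured on 5 one-colour arrays of mouse gastric organoids, 3-dimensional cultures of stomach epithelium. The control was an organoid line from Trp53flox/flox mice carrying the hairpin vector pLKO.1 with shLuc, a luciferase hairpin, and it was sampled before any subcutaneous inoculation. Tumour material made up the remaining 4 samples, which were organoids regrown from subcutaneous tumours, all with Trp53 loss: 2 with a Cdh1 hairpin (shCdh1 #1 and shCdh1 #2, called hairpin 1 and hairpin 2), 1 with Apc580D and 1 with Pik3caH1047R. All 5 samples are labelled stomach and female. Trp53 loss, the other lesion and passage through a tumour are therefore joined in every comparison with the control, because the control's label names no Trp53 loss. Each sample was 1 array, and neither strain, age, the Cre that removed Trp53 nor the number of animals is given in the sources used here. Other tumour-derived organoids that the design text counts were not analysed here.

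An integrin is a pair of 1 α and 1 β subunit, and the pair decides which matrix protein is bound: Itga6 with Itgb4 binds laminin and anchors hemidesmosomes to keratin filaments, Itgb1 joins many α subunits to laminin, collagen or fibronectin, and Itgav pairs with several β subunits to bind proteins that carry the RGD peptide. Tetraspanins are small multi-pass membrane proteins that gather integrins, immunoglobulin-family proteins and proteases of the ADAM family into membrane patches. L6 family proteins have a similar topology, and Tm4sf1 is best known from endothelial and carcinoma cells. In the stomach, integrins tie the gland epithelium to its basement membrane.

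Levels are log2 signals relative to the 75th percentile of each array, so a level of 0 is that percentile, and levels of different genes are not compared because each has its own probe. Of 59305 spots, 36661 to 38710 on each array were called well above background by the scanner software. The targeted genes were checked against the labels. Trp53 stood at 0.85 in the control and between −5.86 and −4.86 in the tumour samples. Cdh1 stood at 0.07 and 0.26 with the hairpins against 4.39 to 4.58 elsewhere. Apc and Pik3ca RNA did not set apart the samples named for them. Apc differed from the control by −0.35 log2 units in the Apc sample and by −0.47 in the Pik3ca sample. Pik3ca differed by −1.17 in the Pik3ca sample and by −1.95 in the Apc sample. These levels therefore do not show whether the Apc and Pik3ca samples carry the named lesions. The Pik3ca sample went against its female label. Its Xist, the transcript that coats an inactive X chromosome, was not well above background (−8.14, against −0.90 to −0.69 in the other samples), and 4 genes of the Y chromosome (Uty, Kdm5d, Eif2s3y and Ddx3y) passed the detection call in it alone. The main results that rest on it are therefore also given without it. All 8 epithelial marker genes were well above background on every array. 9 of 9 gastric marker genes had a lower mean in the tumour samples than in the control, 6 of them at least 2-fold, with their summed signal at 227 times the 75th percentile in the control and 43.6 to 134 times in the tumour samples. None of the 9 passed the test described next.

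The first comparison asked how the 4 tumour-derived samples as a group differed from the control. A probe of 48 of the 54 members was well above background on at least 1 array, and these 48 were tested. The other 6, Itga4, Itga11, Itgad, Itgb8, Tspan10 and Tspan18, were not well above background on any array. Tm4sf1 was much higher in every tumour sample, Tspan12 was at least 2-fold higher in every one, the laminin-binding subunits Itgb4 and Itga7 and the tetraspanin Tspan6 were lower, and most of the widely expressed tetraspanins lay close to the control. After adjustment over all 17583 genes tested, 0 of the 48 members passed a limma adjusted p of 0.05, where 0.119% of all genes did. At an unadjusted p under 0.05 there were 12 members (25%), against 13.3% of all genes: 7 higher (Itga3, Itgav, Itgae, Itgax, Tm4sf1, Tm4sf4 and Tspan12) and 5 lower (Itga10, Itgb4, Tspan6, Tspan13 and Tspan15). Of the 7, Itgax and Tm4sf4 were not well above background in the control. They were tested only through tumour arrays, which favours a higher mean. The design has 1 control array, so its spread is taken from the tumour samples, and p-values measure only the spread between these samples. The tumour samples differ in lesion and slide but are treated as replicates of 1 group. Their spread therefore includes those differences, and part of it may be technical. Lower signal in a bulk sample can mean fewer cells of a type or less RNA per cell, which cannot be told apart.

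All 4 tumour arrays lay above the control in 19 members (39.6%, against 30.2% of all genes tested) and below it in 11 (22.9%, against 24.4%), and 18 members had tumour arrays on both sides. The control thus lay outside the tumour range in 30 members (62.5%, against 54.7%). The mean difference was at least 2-fold upwards in 7 members (14.6%, against 9.88%) and downwards in 4 (8.33%, against 6.98%). Both upward counts include Itgax, Itgb3 and Tm4sf4, and the first also Itga8. These genes were tested only through tumour arrays, which favours a higher mean, so the upward counts are no support for a rise. The median difference was 0.21 over the 48 members and 0.06 over all genes tested, on the log2 scale. By role, 15 of 22 tested integrins were higher and 7 lower (median 0.37), and 9 of 23 tetraspanins were higher and 14 lower (median −0.04), beside 55.4% higher and 44.6% lower over all genes tested. The difference between the families was not tested. Without the Pik3ca sample the median of the 48 members was 0.115. Over the 41 members well above background on every array the median was 0.097, against 0.035 over all such genes.

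**Figure D1:**
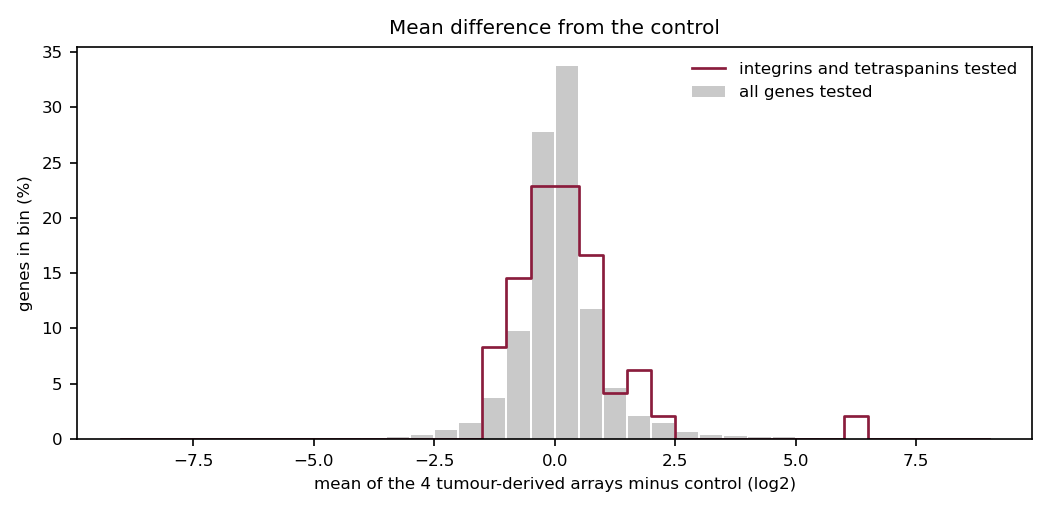
Distribution of the log2 difference between the mean of the 4 tumour-derived arrays and the control. Grey bars give the percentage of the 17583 genes tested in each bin and the red line that of the 48 integrins, tetraspanins and L6 genes tested. The bins on either side of 0 each hold 11 members (22.9%), against 27.8% and 33.8% of all genes, and the member on the far right is Tm4sf1 at 6.15.

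In 4 members every tumour array was at least 2-fold above the control (8.33%, against 3.16% of all genes), namely Tm4sf1, Tm4sf4, Tspan12 and Itgax, and in 1, Tspan6, every tumour array was at least 2-fold below (2.08%, against 2.77%). These counts use measured signals whether or not they were above background. Of the 5 genes, Tm4sf1, Tspan12 and Tspan6 were well above background on all 5 arrays. Tm4sf4 was not above background in the control, which bounds its Pik3ca difference at 1.96-fold, and the Itgax signals allow no fold. The 250 bases before the annotated start of Tm4sf1, Tspan12 and Tspan6 are printed here. Only these 3 members were at least 2-fold from the control in every tumour sample and well above background on all 5 arrays. The sequences are from RefSeq on build GRCm38.p6, read 5′ to 3′ on the gene's strand, which is the minus strand for all 3: Tm4sf1 at chr3:57301989-57302238, Tspan12 at chr6:21852534-21852783 and Tspan6 at chrX:133898430-133898679.
Tm4sf1: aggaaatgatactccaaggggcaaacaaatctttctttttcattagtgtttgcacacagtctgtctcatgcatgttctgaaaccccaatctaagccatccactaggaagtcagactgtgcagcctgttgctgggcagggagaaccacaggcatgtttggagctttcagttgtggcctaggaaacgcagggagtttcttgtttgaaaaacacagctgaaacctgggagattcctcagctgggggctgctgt
Tspan12: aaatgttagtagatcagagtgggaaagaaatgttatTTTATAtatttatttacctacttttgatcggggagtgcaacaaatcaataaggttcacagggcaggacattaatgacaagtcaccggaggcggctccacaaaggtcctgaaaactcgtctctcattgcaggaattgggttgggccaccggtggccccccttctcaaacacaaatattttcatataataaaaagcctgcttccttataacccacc
Tspan6: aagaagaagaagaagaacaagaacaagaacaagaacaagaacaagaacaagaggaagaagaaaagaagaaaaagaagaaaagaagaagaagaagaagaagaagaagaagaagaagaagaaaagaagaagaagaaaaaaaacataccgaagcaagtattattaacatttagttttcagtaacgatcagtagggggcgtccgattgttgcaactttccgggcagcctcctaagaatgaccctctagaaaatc
G and C made up 48% of the Tm4sf1 window, 42% of the Tspan12 window and 36% of the Tspan6 window, whose distal stretch is an AAG-rich repeat. Both strands were searched for 5 motifs: AP-1 (TGANTCA), TEAD (GGAATG), the GC box (GGGCGG), the Snail and Zeb E-box (CAGGTG) and the TATA box (TATAAA). Capitals mark the only match, a TATA-box sequence on the opposite strand of Tspan12, beginning 214 bases before the start. Over windows of the same length before all 32851 annotated starts, the motifs occurred in 6.75%, 12.6%, 32.7%, 17.2% and 12.4%, in that order. A missing match says only that these letters are not in these windows.

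Among the laminin receptors, Itgb4, the β subunit that anchors hemidesmosomes, was at 5.13 in the control, 4.04 and 3.94 with hairpins 1 and 2, 3.86 in Apc and 4.15 in Pik3ca. The 4 tumour samples lay within 0.29 of each other and all below the control. The difference was −1.13 ± 0.22 (SE), or 2.19-fold lower, with a limma adjusted p of 0.226. Itga6, its only α partner, was at 5.38 in the control and at 5.64, 5.48, 5.38 and 5.94 on the hairpin 1, hairpin 2, Apc and Pik3ca arrays, a difference of 0.23 ± 0.29 (adjusted p = 0.77). The subunits of this pair were therefore placed differently in each tumour sample: the change of Itga6 exceeded that of Itgb4 by 1.34, 1.29, 1.27 and 1.53 log2 units in the same order. The other 2 Itga6 probes, also well above background on all arrays, had mean differences of 0.36 and 0.47, and Itgb4 had 1 probe.

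Itga3, which with Itgb1 binds the laminin of epithelial basement membranes, was at 1.40 in the control, 2.14 and 2.40 with the hairpins, 2.19 in Apc and 2.75 in Pik3ca. All tumour samples were above the control, Pik3ca most (0.97 ± 0.31, adjusted p = 0.319), with 0.84 left without Pik3ca. Itga7, a laminin receptor subunit best known from muscle, went the other way: 2.00 in the control, 0.83 and −0.39 with the hairpins, 1.29 in Apc and 0.60 in Pik3ca. The hairpin pair differed from each other more than 2-fold in Itga7, and the difference from the control was −1.41 ± 0.65 (adjusted p = 0.432). Itgb1, the partner shared by Itga3 and most matrix-binding α subunits, was at 3.95 in the control and 4.26, 4.46, 4.47 and 4.49 in the tumour samples, 1.38-fold higher (0.47 ± 0.21, adjusted p = 0.433). Each tumour sample was above the control, hairpin 1 least.

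The collagen receptor subunits were split. Itga2, the α subunit of the epithelial collagen receptor, was at 1.14 in the control, 2.04 and 2.56 with the hairpins, 2.01 in Apc and 1.61 in Pik3ca. All 4 tumour samples were higher, with a difference of 0.92 ± 0.39 (adjusted p = 0.405). Itga10, a collagen receptor subunit best known from cartilage, was at −1.51 in the control and at −2.74, −3.47, −2.33 and −3.00 on the hairpin 1, hairpin 2, Apc and Pik3ca arrays. All 4 were lower, 2.58-fold on average (−1.37 ± 0.46, adjusted p = 0.336). On the probe used, Itga1 was also below the control in every tumour sample. It was lower least with hairpins 1 and 2 (−0.35 and −0.42) and most in Apc (−0.85) and Pik3ca (−1.55), with a mean of −0.54 without Pik3ca. A second Itga1 probe, above background on all arrays, differed by 0.03 and 0.07 with the hairpins, −0.86 in Apc and −1.48 in Pik3ca. Itga11 was not measured above background.

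**Figure D2:**
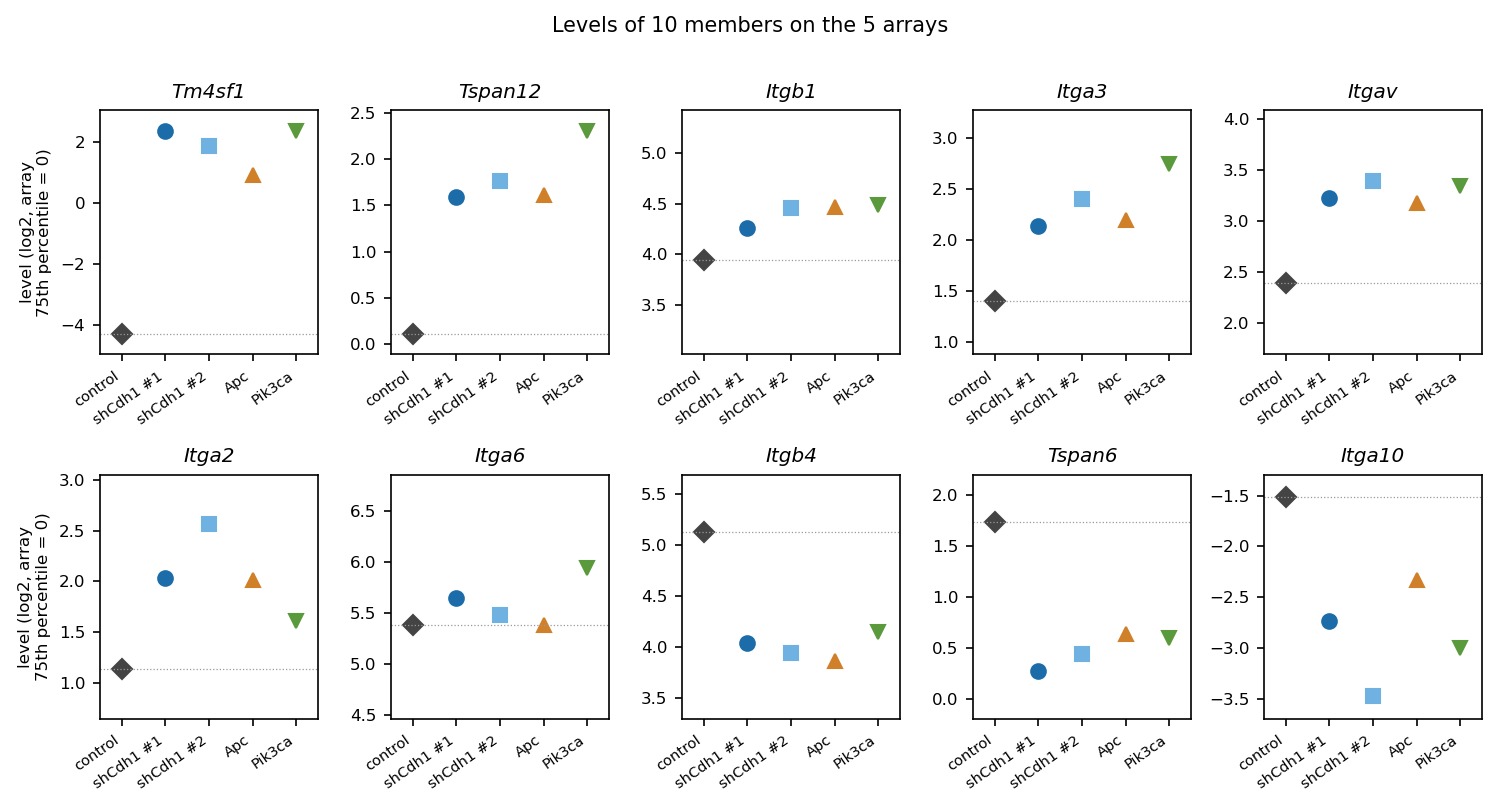
Log2 level of 10 members on each of the 5 arrays, relative to the array's 75th percentile. Each symbol is 1 array, the dotted line marks the control, and the vertical axis differs between panels. Tm4sf1 ranges from −4.29 in the control to 2.36 in Pik3ca, Itgb4, Tspan6 and Itga10 lie below the control in all tumour samples, and Itga6 in Apc (5.38) sits on the control line.

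Among the subunits of RGD-binding and related matrix receptors, Itgav was the most even. It was at 2.39 in the control, 3.23 and 3.39 with the hairpins, 3.18 in Apc and 3.35 in Pik3ca. The tumour samples lay within 0.21 of each other and all above the control, 1.87-fold on average (0.90 ± 0.21, adjusted p = 0.253). Its β partners did not share that placement. Itgb5, a vitronectin receptor subunit, was at 1.62 in the control and 1.25, 1.63, 2.35 and 1.64 on the hairpin 1, hairpin 2, Apc and Pik3ca arrays, so that the control lay within the tumour range (0.10 ± 0.45, adjusted p = 0.946). Itgb6, an epithelial subunit that with Itgav activates latent TGF-β, was at 2.21 in the control and 1.82, 2.62, 1.74 and 1.29 in the tumour samples, again with the control inside their range (−0.34 ± 0.52, adjusted p = 0.814). A second Itgb6 probe, also above background everywhere, had a mean difference of 0.84, so the probes of this gene gave opposite directions. Itgb8 was not well above background on any array.

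The dimmer subunits of this class differed between tumour samples. Itga5, which with Itgb1 forms the main fibronectin receptor, was at −4.77 in the control, not well above background with hairpin 1 (−6.23), and at −4.58 with hairpin 2, −3.36 in Apc and −2.76 in Pik3ca. Apc and Pik3ca were 2.66-fold and 4.03-fold above the control, and the control was at least 2.16-fold above hairpin 1. The mean difference was 0.54 ± 1.35 (adjusted p = 0.895), with 3 of 4 tumour arrays above background. Itgb3, the β subunit of the platelet fibrinogen receptor and of a vitronectin receptor with Itgav, was well above background only in Apc (−5.17) and Pik3ca (−4.52). Against the lowest signal well above background on the control array, this is at least 1.86-fold higher in Apc and at least 2.91-fold in Pik3ca. Over the 4 tumour samples together it is at least 1.1-fold, with 2 of 4 arrays above background. Itga8 was above background in Apc alone (−5.80), at least 1.20-fold higher there than in the control. Itga2b, the platelet α subunit, was at −5.17 in the control and lower in every tumour sample, down to −6.76 in Pik3ca, where it was not above background and the control was at least 1.69-fold higher. The platelet marker list went the other way: 4 of its 5 tested genes were higher and 1 lower, with a summed signal of 0.159 times the 75th percentile in the control and 0.210 to 0.502 times in the tumour samples.

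Itga9, which binds tenascin and other matrix proteins with Itgb1, was at −1.62 in the control, −2.35 and −1.84 with the hairpins, −1.19 in Apc and −4.11 in Pik3ca. Pik3ca was 5.65-fold below the control, and Apc slightly above it. The difference over all tumour samples was −0.76 ± 1.11 (adjusted p = 0.805) and without Pik3ca −0.18, which is the largest shift of any member on leaving out that sample. Its relative Itga4 was not measured above background.

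**Figure D3:**
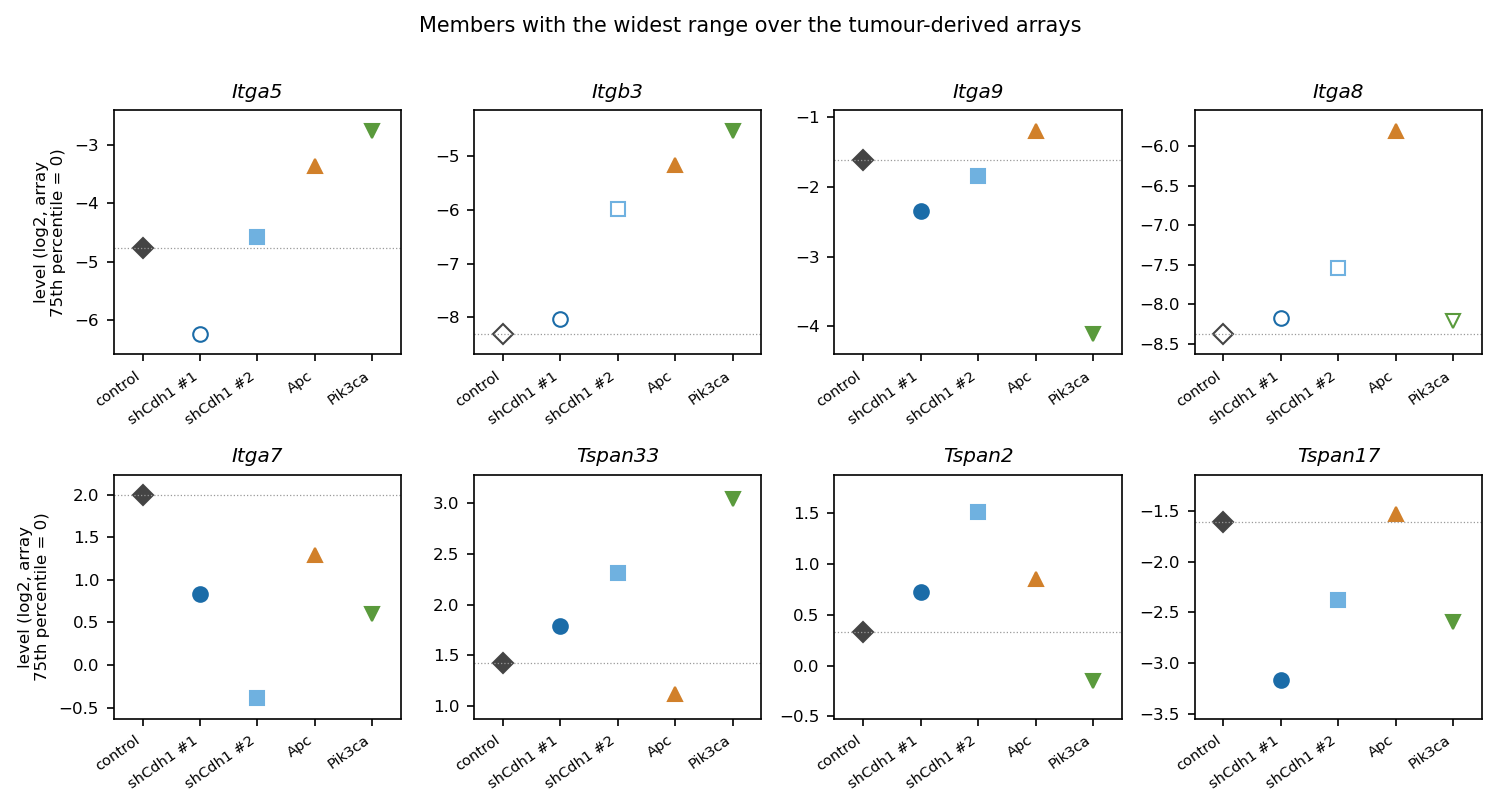
Log2 level on each array of the 8 members with the widest range over the tumour-derived arrays. Filled symbols are well above background, open symbols are not, the dotted line marks the control, and the vertical axis differs between panels. Itga5 and Itgb3 are highest in Pik3ca, Itga5 is not above background with hairpin 1, nor Itgb3 in the control or with either hairpin, and Itga9 is lowest in Pik3ca at −4.11.

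The integrin subunits best known from leukocytes were measured too, and 6 of 6 tested had a higher mean in the tumour samples. Itgae, which with Itgb7 binds E-cadherin on epithelial cells, was at −5.26 in the control and −4.01, −4.32, −4.33 and −4.11 on the hairpin 1, hairpin 2, Apc and Pik3ca arrays. All were above the control, within 0.31 of each other (1.07 ± 0.24, adjusted p = 0.241). Itgb2, the β subunit of leukocyte integrins, was at −4.84 in the control, −3.98 and −3.87 with the hairpins, −4.20 in Apc and −2.57 in Pik3ca. Pik3ca stood 4.85-fold above the control, and the mean difference was 1.19 ± 0.67 (adjusted p = 0.509), or 0.83 without Pik3ca. With another background correction the mean differences of Itgae and Itgb2 fell to 0.40 and 0.55. On the probes used, Itgam, Itgal and Itgb7 had differences of 0.28, 0.45 and 0.20. These probes lay within 2-fold of the control on every tumour array, but others did not. A second Itgb7 probe, above background on all arrays, differed by 0.21 and 0.08 with the hairpins, 0.44 in Apc and 2.79 in Pik3ca. A dimmer Itgam probe, above background on 4 arrays, differed by 1.32 with hairpin 1 and −1.11 in Apc. Itgax passed the detection limit only through a second probe on 1 array, so its 1.60 has no fold, and Itgad was not above background. Of 12 leukocyte marker genes, 10 were tested, 8 of them higher and 2 lower in the tumour samples, with none passing. The summed signal of the list was 13.7 times the 75th percentile in the control and 16.7 to 28.5 times in the tumour samples. Cd68 and Cd14 made up most of it on each array, at levels of 2.51 and 2.58 in the control and 3.84 and 3.59 with hairpin 2. 6 of the 12 marker genes were above background on all 5 arrays: Cd3e, Cd68, Csf1r, Cd14, Fcer1g and Coro1a. Their mean differences were 0.03, 0.98, −0.05, 0.24, −0.34 and 1.00 in that order. Ptprc, which encodes the common leukocyte antigen CD45, was above background on 3 of 5 arrays, and the macrophage gene Adgre1 and the signalling adaptor Tyrobp on none. The part of other cells in these values was not tested.

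**Figure D4:**
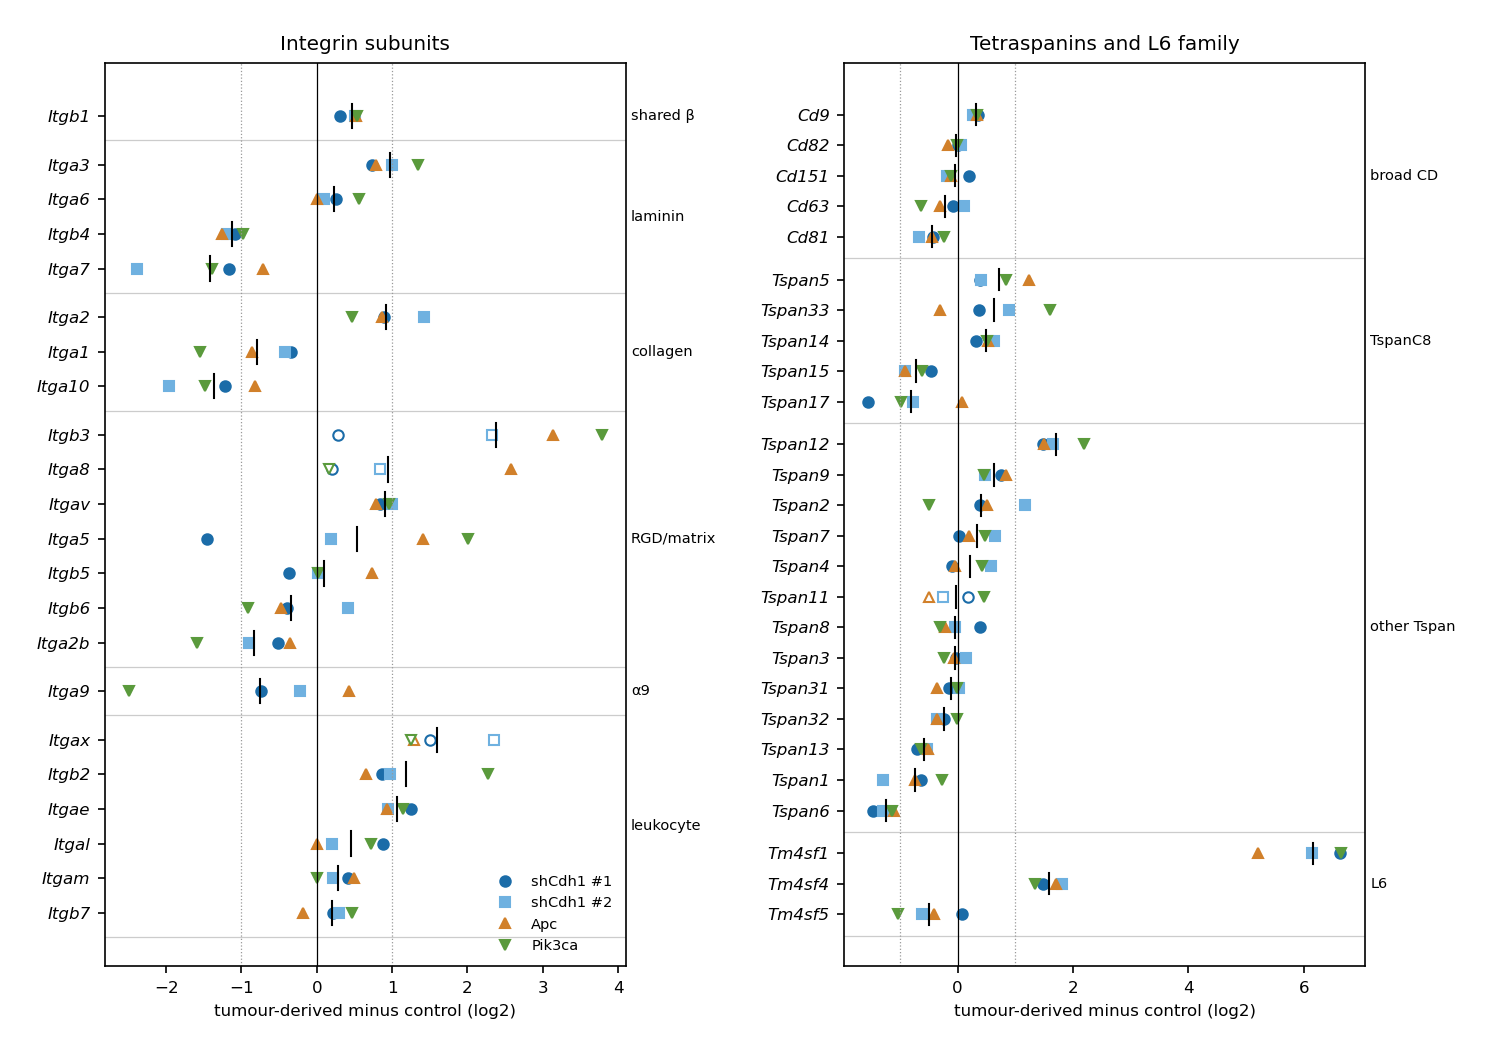
Log2 difference from the control of each of the 4 tumour-derived arrays for the 48 members tested, grouped by role. Each symbol is 1 array, the black tick is their mean, open symbols mark arrays where neither that sample nor the control was well above background, and dotted lines mark 2-fold. The broad CD tetraspanins cluster around 0, Tm4sf1 lies between 5.20 and 6.65, and Itga5 and Itga9 spread to both sides.

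Among the tetraspanins, the 5 named by CD number, which are abundant in most cells and on exosomes, differed little. Cd9, a partner of Itgb1 and of growth factor precursors, was at 4.53 in the control, 4.89 and 4.81 with the hairpins, 4.87 in Apc and 4.86 in Pik3ca. These lay within 0.08 of each other and 1.25-fold above the control, although the fit, which pools its variance over genes, gave 0.32 ± 0.20 (adjusted p = 0.536). Cd81 was below the control in all 4 samples, at 5.68, 5.44, 5.66 and 5.87 against 6.11 (−0.44 ± 0.25, adjusted p = 0.504). Cd151, the tetraspanin that binds laminin-receptor integrins directly, was at 3.92 in the control and between 3.74 and 4.11 in the tumour samples. Cd63, an endosome and exosome protein, was at 6.87 in the control and between 6.24 and 6.98, lowest in Pik3ca, and Cd82 at 5.73 and between 5.57 and 5.79. For Cd63, Cd82 and Cd151 the control lay inside the tumour range, with adjusted p-values of 0.812, 0.97 and 0.948. Set beside its integrin partners, the Cd151 change was smaller than that of Itga3 by 0.54 to 1.45 log2 units and smaller than that of Itga6 by 0.07 to 0.66 units.

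The TspanC8 tetraspanins carry the protease ADAM10 to the cell surface. Of 6, 5 were tested and placed on both sides. Tspan14 was 1.24-fold to 1.55-fold higher across the tumour samples (0.50 ± 0.22, adjusted p = 0.427), and Tspan5 was higher by 0.39 and 0.41 with the hairpins, 1.24 in Apc and 0.83 in Pik3ca. Tspan15 was lower by 0.46, 0.91, 0.91 and 0.62 log2 units in the same order (adjusted p = 0.367). Tspan33 was at 1.43 in the control, 1.79 and 2.31 with the hairpins, 1.12 in Apc and 3.03 in Pik3ca, highest in Pik3ca and below the control only in Apc. Tspan17 was at −1.61 in the control, −3.16 and −2.38 with the hairpins, −1.53 in Apc and −2.59 in Pik3ca, so that Apc alone stayed at the control's level. Adam10 itself was 0.27 ± 0.23 above the control (adjusted p = 0.665), and Tspan10 was not measured above background.

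Of the remaining tetraspanins, Tspan12, which assists Norrin signalling through Fzd4, was at 0.11 in the control, 1.60 and 1.77 with the hairpins, 1.61 in Apc and 2.31 in Pik3ca. Every tumour sample was between 2.80-fold and 4.59-fold above the control (1.71 ± 0.35, adjusted p = 0.23), with a mean difference of 1.55 without Pik3ca. Fzd4 was lower in all 4 (−0.48 ± 0.38, adjusted p = 0.636). Tspan6 was at 1.73 in the control, 0.27 and 0.44 with the hairpins, 0.64 in Apc and 0.60 in Pik3ca. Every tumour sample was between 2.14-fold and 2.75-fold below (−1.25 ± 0.24, adjusted p = 0.222). Tspan13 was also lower in all 4, by 0.50 to 0.70 log2 units (−0.59 ± 0.21, adjusted p = 0.349), as were Tspan1 (−0.73 ± 0.42) and the brightest Tspan32 probe (−0.24 ± 0.24). The other Tspan32 probes, above background on 4, 1 and 0 arrays, were higher in all 4 tumour samples, with means of 0.27, 1.72 and 0.95. Tspan9 (0.63 ± 0.25) and Tspan7 (0.34 ± 0.31) were higher in all 4. Tspan8, a tetraspanin of gut epithelium and carcinomas, was at 4.41 in the control and 4.80, 4.36, 4.20 and 4.11 in the tumour samples, above the control only with hairpin 1 (adjusted p = 0.971). Tspan2 was at 0.34 in the control, 0.73 and 1.51 with the hairpins, 0.85 in Apc and −0.15 in Pik3ca. Tspan3, Tspan4, Tspan11 and Tspan31 had mean differences between −0.12 and 0.22 with the control inside the tumour range. Tspan11 was above background only in Pik3ca.

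The L6 gene Tm4sf1 had the largest difference of any member. It was at −4.29 in the control, 2.33 and 1.85 with hairpins 1 and 2, 0.91 in Apc and 2.36 in Pik3ca. Its probe was well above background on every array. The tumour samples were 98.7-fold, 70.6-fold, 36.8-fold and 100-fold above the control, Apc least. The mean difference was 6.15 ± 0.62, or 71.2-fold, with a limma adjusted p of 0.093, which missed the threshold. Without Apc it was 6.47 and passed (adjusted p = 0.0411), as it did with another background correction (5.10, adjusted p = 0.042) and with dim signals set to a floor (6.15, adjusted p = 0.0449). Without Pik3ca it was 5.99. Tm4sf4 was dim: −4.96, −4.63, −4.74 and −5.10 in the tumour samples and not well above background in the control (−6.44). Its 4 tumour samples averaged at least 2.31-fold above the control (1.59 ± 0.27, adjusted p = 0.2). Tm4sf5 did not share this: it was at 0.28 in the control and 0.35, −0.33, −0.13 and −0.75 in the tumour samples, above the control with hairpin 1 and lowest in Pik3ca.

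The next comparisons set each tumour genotype against the control. They share that 1 control array, and the spread comes from the hairpin pair, so Apc and Pik3ca are assumed to vary as the hairpins do. 0 of 48 members passed an adjusted p of 0.05 in any of them, as did 0.0% of all genes in each. At an unadjusted p under 0.05 there were 10 members for shCdh1 (9.74% of all genes), 7 for Apc (9.02%) and 11 for Pik3ca (11.5%), which is 20.8%, 14.6% and 22.9% of the members. The next counts use the fitted difference of every tested member, detected or not. With shCdh1, 7 members were at least 2-fold higher (8.95% of all genes): Tm4sf1, Tm4sf4, Tspan12, Itgax, Itgb3, Itga2 and Itgae. For Itgax and Itgb3 no fold is given there, since the hairpin and control signals were not above background. 5 were at least 2-fold lower (7.51%): Itga7, Itga10, Tspan6, Tspan17 and Itgb4. In Apc, 8 were higher (11.3%), adding Itga5, Itga8 and Tspan5 to Tm4sf1, Tm4sf4, Tspan12, Itgax and Itgb3, and 2 were lower (6.49%), Itgb4 and Tspan6. Of those higher in Apc, Itga8 and Itgb3 were bounded at 1.20-fold and 1.86-fold, under 2-fold, and Itgax has no fold. In Pik3ca, 10 were higher (12.1%), with Itgb2, Itga5, Itga3, Tspan33 and Itgae beside the same 5 genes, and 7 were lower (10.0%): Itga9, Itga2b, Itga1, Itga10, Itga7, Tspan6 and Tm4sf5. Of these, Tm4sf4 and Itga2b were bounded at 1.96-fold and 1.69-fold, and Itgax has no fold. Apc and Pik3ca were on another slide than the control, so for them slide and genotype cannot be told apart. Without Pik3ca, the mean tumour difference was 0.05 for Itga5, 0.31 for Tspan33 and 0.69 for Tspan2, where it had been 0.54, 0.64 and 0.40, and without hairpin 1 it was 1.20 for Itga5. The hairpins were on the control's slide. There, Tm4sf1 was 6.38 ± 0.36 above the control, Tspan12 1.57 ± 0.28 above, Itgb4 1.14 ± 0.27 below and Tspan6 1.38 ± 0.28 below, in log2 units.

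Hairpins were then compared with the mean of Apc and Pik3ca, which asks what Cdh1 knockdown tumours showed beyond the other tumours and does not use the control. The hairpins were on 1 slide and Apc and Pik3ca on the other, so slide and genotype cannot be told apart here. 0 of 48 members passed (0.0% of all genes), and 2 had an unadjusted p under 0.05 (4.17%, against 6.03% of all genes). No member was at least 2-fold higher with the hairpins (2.51% of all genes), and 2 were at least 2-fold lower (6.42%), Itga5 and Itgb3. The fitted Itga5 difference was −2.34 ± 0.71, with 1 of 2 hairpins above background, and hairpin 2 was at least 2.47-fold above hairpin 1. Itgb3 was not above background with either hairpin, and the mean of Apc and Pik3ca was at least 2.07-fold higher. Against Apc alone, without Pik3ca, 0 members passed, and the Itga5 difference was −2.05 ± 0.87. Itga1 was 0.82 ± 0.22 higher with the hairpins than in the other tumours, and 0.47 ± 0.27 higher without Pik3ca. Itgb7 and Itgae, the subunits of the E-cadherin-binding integrin, differed by 0.12 ± 0.22 and 0.05 ± 0.25. On the second Itgb7 probe, both hairpins (0.21 and 0.08 from the control) lay below Apc (0.44) and Pik3ca (2.79). Over the 41 members above background on every array, the hairpins were at least 2-fold apart in 1, Itga7 (2.44%, against 7.50% of 14581 such genes and 13.2% of all genes tested). Apc and Pik3ca were 2-fold apart in 6 of the 41 members (14.6%, against 8.02%). The control was 2-fold apart from hairpin 1 in 8 (19.5%, against 11.3% of those genes), hairpin 2 in 10 (24.4%, against 13.7%), Apc in 5 (12.2%, against 11.4%) and Pik3ca in 12 (29.3%, against 16.4%). Over the 4 tumour arrays, 13 of the 41 members spanned at least 2-fold (31.7%, against 18.4%).

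The proteins that integrins and tetraspanins bind were examined as lists. Of 28 integrin ligands, 25 were tested, of which 21 were higher and 4 lower in the tumour samples with a median difference of 0.79, against 0.06 for all genes, and 0 passed. Fn1, which encodes fibronectin, was at 0.62 in the control, 2.45 and 4.49 with the hairpins, 5.03 in Apc and 3.30 in Pik3ca. All tumour samples were higher, hairpin 1 least and Apc most (3.20 ± 1.03, adjusted p = 0.323). Lamb1, a laminin β chain, was at 1.51 in the control and 2.64, 3.81, 2.69 and 3.47 in the tumour samples (1.65 ± 0.54, adjusted p = 0.33). Vcam1, a ligand of the Itga4 and Itga9 integrins, was at −4.64 in the control, −2.34 and 2.19 with the hairpins, −1.02 in Apc and −1.57 in Pik3ca. Hairpin 2 stood far above the others, and the mean difference was 3.95 ± 1.74 (adjusted p = 0.419). Col4a1, a basement membrane collagen, was higher with hairpin 1, in Apc and in Pik3ca (1.28, 2.21 and 2.35) and slightly lower with hairpin 2 (−0.20).

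Of 8 hemidesmosome genes, 4 were higher and 4 lower (median 0.19), none passing. Krt14, a basal keratin, was higher by 0.76 and 0.96 with the hairpins, 2.59 in Apc and 4.28 in Pik3ca, while its partner Krt5 was lower by 1.97, 1.95, 1.76 and 0.68 in the same order. Lama3, the α chain of the laminin bound at hemidesmosomes, was higher by 0.24, 0.93, 1.93 and 1.81, and Col17a1, a transmembrane collagen of hemidesmosomes, by 0.71, 0.72, 0.39 and 0.68. Lamb3, a β chain of that laminin, was lower in all 4, by 0.45, 0.70, 0.16 and 0.52.

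Of 35 integrin activators and focal adhesion genes, 33 were tested, 24 higher and 9 lower with a median of 0.18 and none passing. Vcl (vinculin) was 0.98 ± 0.22 above the control (adjusted p = 0.246) and Flna (filamin A) 0.94 ± 0.28 above (adjusted p = 0.302), both in 4 of 4 tumour samples. Tns1 was 0.75 ± 0.45 above and Tns2 0.94 ± 0.99 below, the latter with Pik3ca above the control. Fermt2, a kindlin that activates integrins, and Kank1, a focal adhesion scaffold, were chosen after their values were seen. Like Itga5 and Itgb3, they were higher in Apc and Pik3ca than in the control and hairpin 1, so this likeness is not a result. It was partial: Fermt2 was highest in Apc, and Itga5 and Itgb3 in Pik3ca. Hairpin 2 differed from the control by 3.39 in Fermt2 and by 0.19 in Itga5. Fermt2 was at −5.68 in the control, −7.10 with hairpin 1, −2.29 with hairpin 2, 0.57 in Apc and −1.87 in Pik3ca. Kank1 was at −6.98, −7.99, −2.37, −1.81 and −1.26 in the same order. Fermt2 was above background on 4 arrays and Kank1 on 3. The fibroblast and muscle marker list had a summed signal of 11.5 times the 75th percentile in the control, 15.2 with hairpin 1, 12.1 with hairpin 2, 10.6 in Apc and 14.8 in Pik3ca, of which Acta2 made up 96.9% to 99% on each array. 8 of its 8 tested genes had a higher mean in the tumour samples. Col1a1 of that list, which the naming rules did not select, was at −5.71 in the control, −6.07 with hairpin 1, −4.60 with hairpin 2, −4.00 in Apc and −4.35 in Pik3ca, lowest in the control and hairpin 1. The 3 genes of the list above background on all arrays did not share this order. Col1a2 was lowest in Apc (−5.00), and Acta2 (3.91) and Myh11 (−4.54) were highest with hairpin 1. The part of such cells in the Itga5, Itgb3, Fermt2 and Kank1 values was not tested. Of 7 endothelial genes tested, 5 were higher and 2 lower. 1 of them passed, Emcn, which was above background in the control alone (at least 10.9-fold higher there, limma adjusted p = 0.00788).

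Of 13 tetraspanin partners, 11 were higher and 2 lower (median 0.28), none passing. Epcam, an epithelial adhesion molecule found in tetraspanin patches, was at 3.15 in the control and 3.72, 4.21, 3.77 and 4.65 in the tumour samples, higher in all 4 (0.94 ± 0.42, adjusted p = 0.426). Cd44, a hyaluronan receptor, was higher by 0.23, 0.87, 0.42 and 1.45, and Igsf8, which binds Cd9 and Cd81, by 0.69 ± 0.22 (adjusted p = 0.316). Cd46 was 0.67 ± 0.32 lower. Of 9 family genes whose symbols the rule does not cover, 6 were tested, 5 higher and 1 lower (median 0.27). Cd37, Rom1, Tm4sf20 and Upk1a differed from the control by 0.24 to 0.35 on average.

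**Figure D5:**
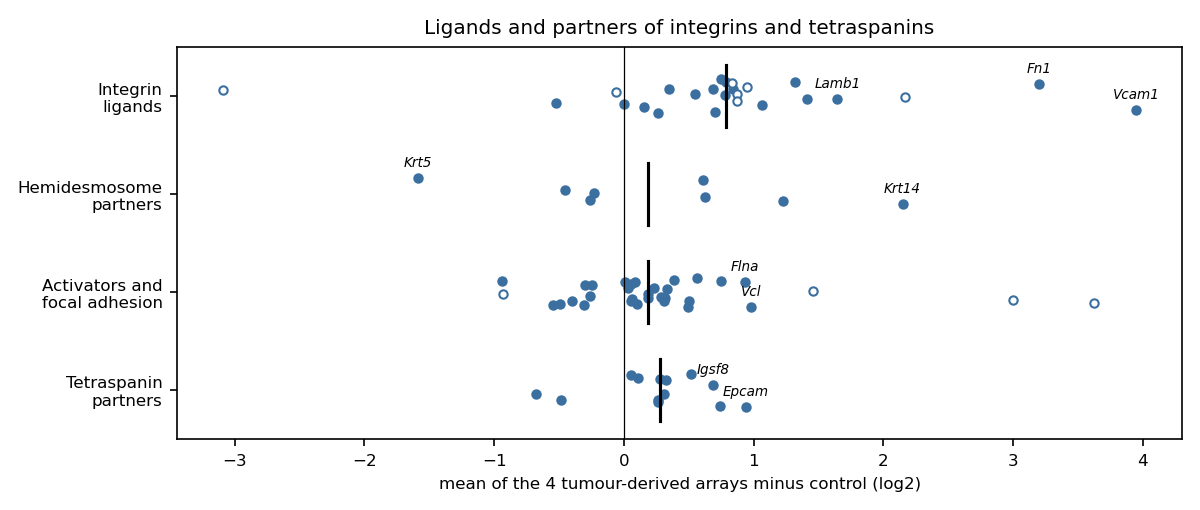
Log2 difference between the mean of the 4 tumour-derived arrays and the control for genes of 4 lists. Each point is a gene, filled where it is well above background on all 5 arrays, points are spread vertically only for legibility, and black bars are list medians. The ligand list has the highest median (0.79), with Fn1 at 3.20 and Vcam1 at 3.95.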

How the data were processed

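RNA from 5 mouse gastric organoid samples was hybridised to 1 one-colour Agilent array each. The submitters' processing notes name Agilent Feature Extraction 11.0.1.1. Each deposited spot intensity was background-subtracted and detrended, per the file headers. The value table that the authors deposited holds log2 values. Its differences between arrays matched the scanner values (slope 1, correlation 1 over 53335 probes, constants −0.046 to −0.023), so scale and direction are known, and the baseline subtracted per probe stays unknown. Its column medians were −0.057, 0.074, 0.031, −0.080 and 0.022 for the control, hairpin 1, hairpin 2, Apc and Pik3ca.

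The log2 processed signal minus each array's 75th percentile was used. Outlier spots (78 to 114 per array) and 32 of 56605 probes were dropped. No spot was saturated. 34549 probes matched 1 symbol through a RefSeq gene table (GRCm38.p6, for names) and 22024 none. A gene took its highest-mean probe, and was tested if any probe was well above background on at least 1 array. limma 3.58.1 in R 4.3.3 (lmFit, eBayes, two-sided, Benjamini-Hochberg over 17583 genes, threshold 0.05) was run with 1 tumour term (3 residual degrees of freedom) or with 1 mean per group (1 residual degree of freedom, from the hairpins, whose spread stands in for that of the single arrays). Errors after ± are standard errors of these fits. The method was tested on simulated data. A gene above background on one side only is given as "at least", against the higher of its own signal and the lowest signal well above background on the dim arrays. Summed list signals add the linear values of all listed genes with a probe. The number of arrays limits the precision.

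Members, lists and naming rules were chosen with earlier results of these data known. Named members were 16 fixed by role, the 12 largest tumour differences among members above background on all arrays, the 8 widest tumour ranges and those above background on one side only, and the others are given more briefly. Up to 4 genes per list were named by size of difference. The motifs, the promoters shown and the genotype results followed through the alternatives were chosen after values were seen. Promoter entries matched 45 of the 54 members. Alternatives were normexp with an offset of 50 on the median spot and background intensities, quantile scaling, no filter, detection on all arrays, a floor, the mean of all probes, the authors' table, slide as a block, and leaving out samples.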

Additional observations from a re-analysis of the deposited data

Results flagged for a closer look

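In the 4 tumour samples, the Itgb1 level with hairpin 1 (4.26) stood apart from the other 3, which lay between 4.46 and 4.49. It was the only named member of 31 tested in this way to do so, and chance alone marks about 1 group in 20. A second Itgb1 probe, above background on all arrays, did not place hairpin 1 apart. Its differences from the control were 0.68 and 0.69 with hairpins 1 and 2, 0.72 in Apc and 0.86 in Pik3ca.

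In 5 of the 32 named members, tumour genotypes lay on opposite sides of the control, counting only genes above background on all 5 arrays. Itga9, Tspan33, Tspan2 and Tspan17 had been named for their wide tumour range, and the share over all genes was not computed. Unnamed members were not searched, and among them Itgal, Itgb7 and Tspan4 also had Apc below and Pik3ca above the control. Apart from the hairpin pair each genotype is 1 array, and the differences between genotypes were not tested. Itga9 was at 0.42 in Apc, −0.48 with shCdh1 and −2.50 in Pik3ca, as log2 differences from the control. Tspan33 was at 0.62 with shCdh1, −0.30 in Apc and 1.61 in Pik3ca. Tspan2 was at 0.78 with shCdh1, 0.52 in Apc and −0.49 in Pik3ca. Tspan17 was at 0.085 in Apc, −1.16 with shCdh1 and −0.98 in Pik3ca. Cd82 was at 0.034 with shCdh1, −0.16 in Apc and −0.0100 in Pik3ca.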

How the results depend on the processing

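In the comparison of all tumour samples with the control, 1 member (Tm4sf1) passed with normexp, with a floor and without Apc, in place of 0, and leaving out 1 sample otherwise kept 0. The number of all genes passing, 21, became 48 with normexp, 49 with a floor, 7 with detection on all arrays, 0 with slide as a block, and 0 to 19 on leaving out 1 sample. The members' median of 0.21 was 0.097 with detection on all arrays and 0.115 to 0.23 on leaving out 1 sample. No member passed in any other comparison or setting. The hairpins against Pik3ca alone or Apc alone, and the genotype comparisons without a genotype they do not involve, were added after seeing the data. Mean differences near 0 changed sign: Tspan11 (−0.03) was 0.079 with normexp, 0.15 with a floor and −0.19 to 0.13 on leaving out 1 sample (0.048 without hairpin 2). Itgb6 was 0.25 as the mean of its probes, and Tspan32, at −0.24 on its brightest probe, was 0.67. Under slide as a block, where only the hairpins inform the difference, Itgb6 was 0.013, Cd151 0.010, Cd63 0.018, Cd82 0.034, Itga5 −0.63, Itgb5 −0.18 and Tspan8 0.17. On leaving out 1 sample Cd82 ranged from −0.057 to 0.019, Itgb5 from −0.11 (without Apc) to 0.25 and Tspan8 from −0.19 to 0.045. In Apc, Itgax was −0.16 with a floor. Of the other single-gene values, 716 kept direction and side of the threshold. The median of all genes moved from 0.06 to 0.01 with quantile scaling and 0.11 with no filter. Slide could not be fitted as a block for Apc or Pik3ca. No paired analysis was possible because only the shCdh1 group has a second replicate. Dim members (Itga5, Itga8, Itgb3, Itgax, Itgae, Itgb2, Tm4sf4 and Tspan11) are limited by signal over background. With normexp the mean differences of Itgae, Itgb2 and Tm4sf4 were 0.40, 0.55 and 0.36, in place of 1.07, 1.19 and 1.59.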
